A study of Mus musculus with 30 samples.

Results

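The 10 genes examined encode subunits of the transcription factor NF-κB and proteins that regulate it: the subunit genes Nfkb1, Nfkb2, Rela and Relb, the IκB genes Nfkbia and Nfkbie, and Tnfaip3, Tnip1, Birc3 and Traf1, which act upstream at the receptor complexes. They were chosen as a family, with earlier results of these data known, and 10 of 10 were found as protein-coding genes in the deposited table of 30952 genes. The libraries come from spinal cord microglia and astrocytes sorted from female C57BL/6 mice. Mice in the 4 naive libraries of each cell type were not immunized. The 6 EAE-vehicle and 5 EAE-RIPK1inh libraries of each cell type come from mice with experimental autoimmune encephalomyelitis (EAE), a T cell-driven disease of the CNS that was induced with the myelin peptide MOG35-55 at 8 to 10 weeks of age. In the paper's protocol the peptide is given in complete Freund's adjuvant, together with pertussis toxin. From a clinical score of around 1, the EAE mice were gavaged BID for 3 days with 20% Captisol as vehicle or with the RIPK1 kinase inhibitor GSK'547 (RIPK1inh-1) at 50 mg/kg. The paper names no adjuvant, toxin or dosing for the naive mice. In comparisons with naive libraries, these agents and the disease cannot be told apart. The labels name no altered gene in any group, and the age of the naive mice is not given in the sources used here. Astrocytes were gated as GLAST+CD11b-CD45-CD140a- and microglia as CD11b+CD45intCX3CR1+ cells.

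NF-κB proteins form dimers that IκB proteins keep in the cytoplasm until receptors such as TNFR1 activate the IκB kinases, and RIPK1 is a scaffold of the TNFR1 complex. The p50 and p52 subunits are cut from the Nfkb1 and Nfkb2 precursors, RelA and RelB carry the activating domains, and RelB with p52 serves the slower noncanonical arm. Several inhibitors are themselves NF-κB targets and close a negative feedback loop: IκBα (Nfkbia) and IκBε (Nfkbie) capture the dimers, and A20 (Tnfaip3), with its partner ABIN1 (Tnip1), edits ubiquitin chains. The proteins cIAP2 (Birc3) and TRAF1 sit on TNF-family receptors.

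The stretches below are shown because the feedback genes are textbook NF-κB targets and 4 of the feedback inhibitors and 1 subunit gene hold a match to the κB consensus just before a RefSeq start site. Promoters of 300 bases, from 250 before to 50 after the start, came from RefSeq on GRCm38.p6 and were at hand for 8 of the 10 genes. Nfkb1 and Relb were not among them. Both strands were searched for GGGRNNYYCC (R a purine, Y a pyrimidine, N any base), and overlapping matches were joined. Matches are in capitals, and each stretch is read 5′ to 3′ on the gene's strand. A promoter with a match was found for 5 of these 8 genes, against 9.55% of the 27025 genes with such a promoter, and no test was made of this.
Nfkb2, chr19:46304678-46304736, plus strand: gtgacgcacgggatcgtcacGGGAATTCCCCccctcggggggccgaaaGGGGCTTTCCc
Nfkbia, chr12:55492648-55492696, minus strand: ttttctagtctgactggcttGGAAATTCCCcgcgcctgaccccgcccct
Nfkbie, chr17:45555574-45555623, plus strand: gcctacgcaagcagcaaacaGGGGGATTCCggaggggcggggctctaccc
Tnfaip3, chr10:19015411-19015555, minus strand: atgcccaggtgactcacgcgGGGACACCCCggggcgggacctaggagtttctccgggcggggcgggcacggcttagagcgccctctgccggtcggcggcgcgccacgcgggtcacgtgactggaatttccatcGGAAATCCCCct
Tnip1, chr11:54962967-54963018, minus strand: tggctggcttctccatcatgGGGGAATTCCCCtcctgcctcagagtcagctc

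Nfkb2 has 3 listed promoters, and a match was found in each. Tnfaip3 has a further promoter without a match, and no match was found in the promoters of Rela, Birc3 and Traf1. In the deposited annotation, Nfkb2 begins at 46304320 and Tnfaip3 at 19015657, so the stretches shown for these genes lie inside them. A match is only a run of letters, and binding was not measured.

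The deposited values are log2 FPKM (fragment counts scaled by exon length and by the library's total), quantile-normalized over all 30 libraries, so a level can be set beside that of another gene per length. Their depth is unknown and no counting interval can be given. A gene without signal in a library still holds a value that follows its place in the table, and such values are named as no signal. The top of these values differed between libraries, from 0 in naive astrocyte library 1 to 2.74 in EAE-vehicle astrocyte library 1. It was 1.74 in naive microglia library 4 and 1.69 in naive astrocyte library 2. A gene with signal lies above the top of its own library, so low levels are not on the same scale in all libraries. Between 8710 and 20398 genes per microglia library and between 6728 and 22981 per astrocyte library had signal, with the fewest in naive microglia library 4, naive astrocyte library 2 and EAE-vehicle astrocyte library 1. In all means over marker lists, genes without signal were set to 0, while calls of markers used the deposited values. Markers matched the labels: over 10 microglia markers, no microglia library had a mean below 8.53 and no astrocyte library one above 4.30. Over 8 astrocyte markers, the lowest mean of an astrocyte library was 8.03 and the highest of a microglia library 2.16. The astrocyte libraries also held oligodendrocyte markers, whose mean over 7 genes ran from 6.13 to 9.91, and neuron markers, at 3.94 to 5.81 over 6 genes. Groups were compared with limma, and "called" means that a difference exceeded 1.5-fold with an unadjusted p below 0.05, as the study did. In sorted bulk RNA, fewer cells of a type and less RNA per cell cannot be told apart. In each group the study counts as many mice as there are libraries, and microglia and astrocytes of the EAE mice came from the same spinal cords. The labels do not tie a microglia library to the astrocyte library of the same mouse, so comparisons across the cell types treated all libraries as independent. The p-values measure the spread between libraries, which may be partly technical.

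**Figure D1:**
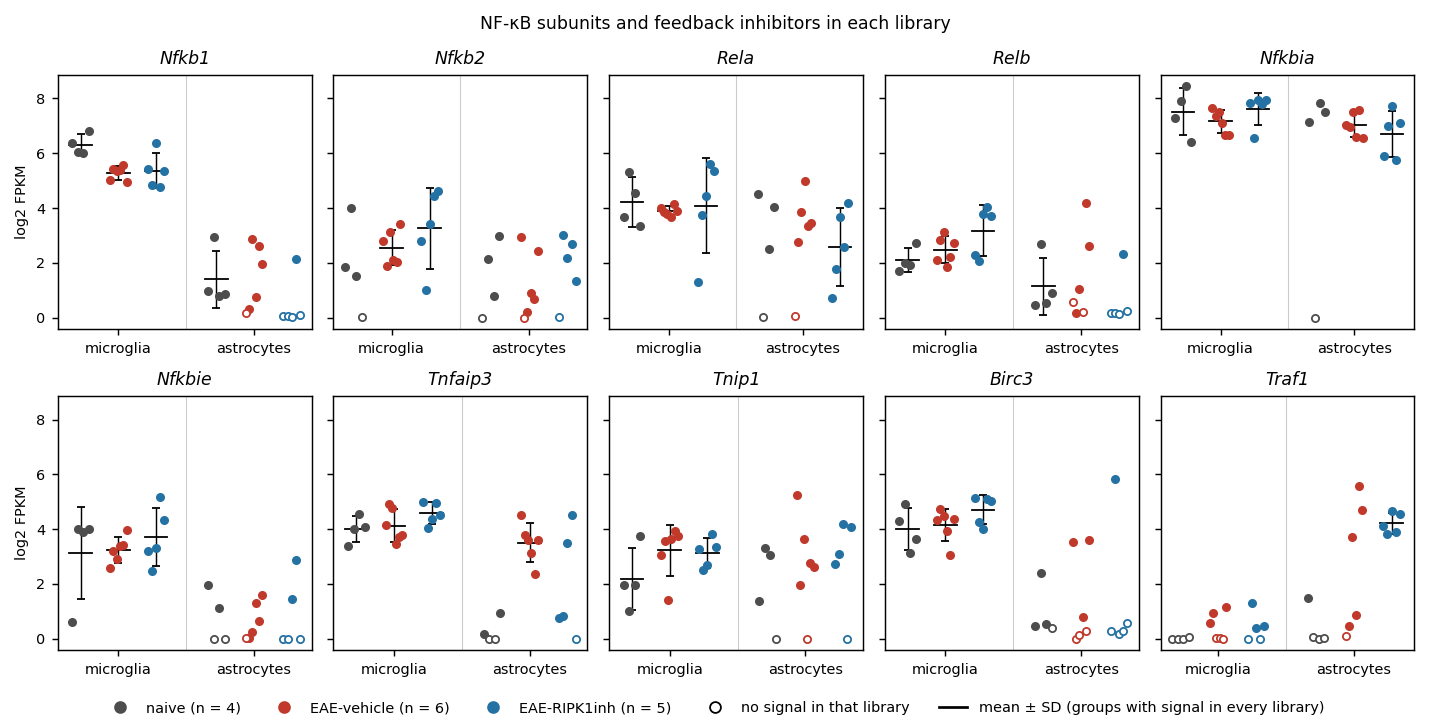
Level of each of the 10 genes (log2 FPKM, y axis) in every library of naive (grey), EAE-vehicle (red) and EAE-RIPK1inh (blue) microglia and astrocytes. Open circles mark libraries without signal for that gene, and bars give the mean ± SD where every library of the group had signal; Nfkb1 in EAE-vehicle microglia lies below all 4 naive libraries, and Tnfaip3 in EAE-vehicle astrocytes lies above them.

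In microglia, 8 of the 10 genes had signal in 15 of 15 libraries, Nfkb2 in 14 and Traf1 in 6. Nfkbia was the highest of the 10 in each of the 3 groups, with 7.52 ± 0.87 (SD, n = 4) for naive microglia, 7.16 ± 0.42 (SD, n = 6) for the vehicle group and 7.62 ± 0.60 (SD, n = 5) for the inhibitor group. Its mean level was at the percentile 98.0 of protein-coding genes in microglia. Nfkb1 came next, at 6.31 ± 0.37 in naive microglia (SD, n = 4), and each of its naive libraries lay above every library of Rela, the third in order. From Rela at 4.22 down to Nfkb2 at 1.85 the naive order was Rela, Tnfaip3, Birc3, Nfkbie, Tnip1, Relb and Nfkb2, and in no neighbouring pair did all libraries of the one lie above all of the other. Traf1 was last and had no signal in any of the 4 naive libraries.

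In astrocytes, none of the 10 had signal in every library. Nfkbia had signal in 14 of 15 libraries, Rela in 13, Nfkb2, Tnfaip3 and Tnip1 in 12 each, Traf1 in 11, Nfkb1 in 10, Relb and Nfkbie in 9 each and Birc3 in 7. Nfkbia was again the highest, between 6.55 and 7.57 in the 6 EAE-vehicle libraries and between 5.76 and 7.72 in the 5 EAE-RIPK1inh libraries. In the naive libraries it stood at 7.15, no signal, 7.84 and 7.50. By the mean over all libraries, those without signal entering at their deposited value, the second place differed with the group: it was held by Rela in naive (2.77), Tnfaip3 in EAE-vehicle (3.50) and Traf1 in EAE-RIPK1inh astrocytes (4.21). None of these was separated from the third gene by non-overlapping libraries.

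In the naive cord, Nfkb1, Nfkbie, Tnfaip3 and Birc3 were higher in microglia than in astrocytes, and none of the 10 genes was called lower. Across all 30952 genes, 19.7% were called in this comparison, 10.0% higher in microglia and 9.64% lower. The same 4 genes passed an adjusted p of 0.05 in limma, as did 11.9% of all genes. The median log2 difference of the 10 genes was 1.67, against -0.01 over all genes tested and 0.20 over genes whose log2 values averaged 1 or more.

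Nfkb1 was at 6.38, 6.06, 6.00 and 6.81 in the naive microglia libraries and at 0.99, 2.95, 0.80 and 0.86 in the naive astrocyte libraries. No microglia library came near the astrocyte range, and the difference was 4.92 log2 units (SE 0.59, adjusted p = 3.30e-07 in limma). Its size depends on the offset added before the logarithm, which is not given in the sources used here, as do all differences from levels near no signal. With 1 added to the back-transformed values it was 4.42. Tnfaip3 stood at 3.40, 4.02, 4.57 and 4.07 in naive microglia and at 0.17, no signal, no signal and 0.95 in naive astrocytes. These groups do not overlap either, and the difference was 3.74 (SE 0.67, adjusted p = 1.61e-04 in limma). Birc3 was at 4.31, 4.91, 3.14 and 3.63 against 0.45, 2.39, 0.53 and no signal, a difference of 3.05 (SE 0.95, adjusted p = 0.0325 in limma). The exact permutation p, two-sided, was 0.0286 for each of these 3 genes, the smallest that 4 against 4 libraries allow. Nfkbie stood at 0.63, 4.00, 3.88 and 4.01 against 1.98, no signal, 1.11 and no signal. The first naive microglia library lay below the astrocyte libraries with signal, and the difference was 2.36 (SE 0.73, adjusted p = 0.0306 in limma, exact permutation p = 0.0857). Nfkbia differed by 1.89 and was not called (unadjusted p = 0.0631 in limma). That difference fell to 0.02 without naive astrocyte library 2, the library in which the gene had no signal. It was called without naive astrocyte library 1, 3 or 4 or naive microglia library 4, at 2.26 to 2.63.

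Of 67 other genes of the pathway, 29 were called higher in naive microglia than in naive astrocytes and 3 lower, and 20 and 2 of them passed adjustment in limma. Receptors and their adaptors had 5 of 9 called higher and ligands 4 of 8. Il1a, which encodes the cytokine IL-1α, stood at 6.68 ± 0.87 (SD, n = 4) in microglia and had no signal in any naive astrocyte library. Cd83, a surface protein of activated myeloid cells, differed by 6.26 (adjusted p = 1.93e-06 in limma). Traf5, a TRAF adaptor, stood at 5.71 ± 0.95 in microglia and had signal in 1 of 4 naive astrocyte libraries. The 3 called lower in microglia were Vcam1, an adhesion molecule, at -5.33 (adjusted p = 4.90e-04), Sod2, the mitochondrial superoxide dismutase, at -2.70 (adjusted p = 1.43e-06), and Tnfaip2 at -1.95 (adjusted p = 0.139), all from limma.

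Nfkb1 was lower in EAE-vehicle than in naive microglia, and the other 9 genes were not called. Over 28958 genes tested, 12.0% were called between EAE-vehicle and naive microglia, 6.13% higher and 5.86% lower. Of the 10 genes 1 was called, which is near that background. At an adjusted p under 0.05 in limma, 3.92% of all genes passed and 0 of the 10, with 0.0660 for Nfkb1 as the smallest, and 1 of the 10 had an unadjusted p under 0.05. The count was 2, Nfkb1 and Tnip1, without the 3 libraries with the fewest detected genes, and 3 when libraries were weighted by quality. The share of all genes called in these other fits was not computed, so these counts cannot be set against the 12.0%. The median difference of the 10 genes was 0.14, against -0.02 over all genes and 0.02 over genes whose log2 values averaged 1 or more.

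Nfkb1 stood at 6.38, 6.06, 6.00 and 6.81 in naive and at 5.02, 5.43, 5.34, 5.40, 5.58 and 4.96 in EAE-vehicle microglia. Every EAE-vehicle library lay below every naive library. The difference was -1.03 log2 units, or a level 0.490 times that of naive microglia (SE 0.29, adjusted p = 0.0660 in limma). The exact permutation p, two-sided, was 0.00476, the smallest that 4 against 6 libraries allow. The difference stayed between -1.13 and -0.86 with each library left out in turn, and the call was kept each time. Nfkb1 is marked in the annotation as confounded with another gene, as are Nfkb2, Tnip1 and 15717 of all 30952 genes. Microglia markers moved with this comparison: 9 of 10 were called lower in EAE-vehicle, and their mean ran from 10.7 to 11.4 in naive and from 8.53 to 9.04 in EAE-vehicle libraries. The mean over 9 monocyte and neutrophil markers ran from 1.99 to 6.35 and from 2.41 to 6.48, with 2 of 9 called higher. No T cell marker list mean in these libraries was above 0.72. The part of these cells in the Nfkb1 result was not tested.

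Among the other subunits, Rela ran from 3.68 to 4.14 in EAE-vehicle microglia, inside its naive range of 3.34 to 5.33. Relb ran from 1.71 to 2.73 in naive and from 1.86 to 3.14 in EAE-vehicle, and Nfkb2 from no signal to 3.99 and from 1.88 to 3.42. Their differences were -0.33, 0.39 and 0.70, and each pair of groups overlapped.

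Of the remaining genes, Nfkbia differed by -0.35 (SE 0.38). With single libraries left out its difference ran from -0.72 to -0.044, and with quality weights it was called lower at -0.95. Nfkbie differed by 0.12 (SE 0.66). Tnfaip3 was at 3.40, 4.02, 4.57 and 4.07 in naive and at 4.17, 4.91, 4.76, 3.47, 3.71 and 3.77 in EAE-vehicle microglia, a difference of 0.12 (SE 0.33, adjusted p = 0.929 in limma). Of the 6 EAE-vehicle libraries, 4 lay inside the naive range and the other two just above it. Birc3 differed by 0.15 (SE 0.40). Tnip1 had the largest positive difference of the 10 genes, 1.04 (SE 0.55, adjusted p = 0.469 in limma, exact permutation p = 0.157). It stood at 1.98, 1.03, 1.98 and 3.75 in naive and at 3.04, 3.56, 1.41, 3.64, 3.93 and 3.76 in EAE-vehicle microglia, so that the groups overlap through naive library 4 and EAE-vehicle library 3. Without either of these the gene was called, at 1.56 and 1.40, as it was with quality weights, at 1.84. Without naive library 2 the difference was 0.66 and not called. Traf1 had signal in 3 of 6 EAE-vehicle libraries, at 0.57, 0.95 and 1.15, and in no naive library.

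Of 66 other genes of the pathway that were tested, 14 were called higher and 5 lower in EAE-vehicle microglia, and 9 and 2 passed adjustment in limma. The target genes had 7 of 17 called higher and 1 lower, and their median difference was 0.51. Ccl5, a chemokine for T cells, stood at 8.60 ± 0.31 (SD, n = 6) in EAE-vehicle and at no signal to 4.38 in naive microglia (adjusted p = 8.26e-06 in limma). Cxcl10, an interferon-inducible chemokine, stood at 7.28 ± 0.38 and at no signal to 3.66 in naive microglia (adjusted p = 9.35e-05 in limma). Cd40, a TNF-family receptor that feeds the noncanonical arm, had no signal in naive microglia and stood at 4.42 ± 0.82 in EAE-vehicle (adjusted p = 3.66e-06 in limma). Rel, the gene of the subunit c-Rel, fell beside Nfkb1, from 3.16 ± 0.12 (SD, n = 4) to 1.99 ± 0.44 (SD, n = 6), a difference of -1.17 (SE 0.29, adjusted p = 0.0362 in limma). Of the 5 other subunit and IκB genes, Rel was the only one called lower, and Bcl3, an atypical IκB protein, the only one called higher, at 2.21 (adjusted p = 0.0549 in limma). Bcl3 was named after its values were seen. Map3k14, which encodes the kinase NIK of the noncanonical arm, differed by -1.51 (adjusted p = 0.0736 in limma) and Traf5 by -1.20 (adjusted p = 0.157 in limma). Both were called lower, as were Il6, the gene of the cytokine IL-6, and Tnfrsf1b, which encodes TNFR2. Il6 fell the furthest of the 5, by 1.95 (SE 0.42, adjusted p = 0.0153 in limma), and ran from 0.96 to 3.25 in naive microglia, while 3 of 6 EAE-vehicle libraries had signal, at most 1.02. Tnfrsf1b differed by -1.04 (adjusted p = 0.288 in limma). Il6 and Rel were those that passed adjustment, and Il6 and Tnfrsf1b were named after their values were seen.

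**Figure D2:**
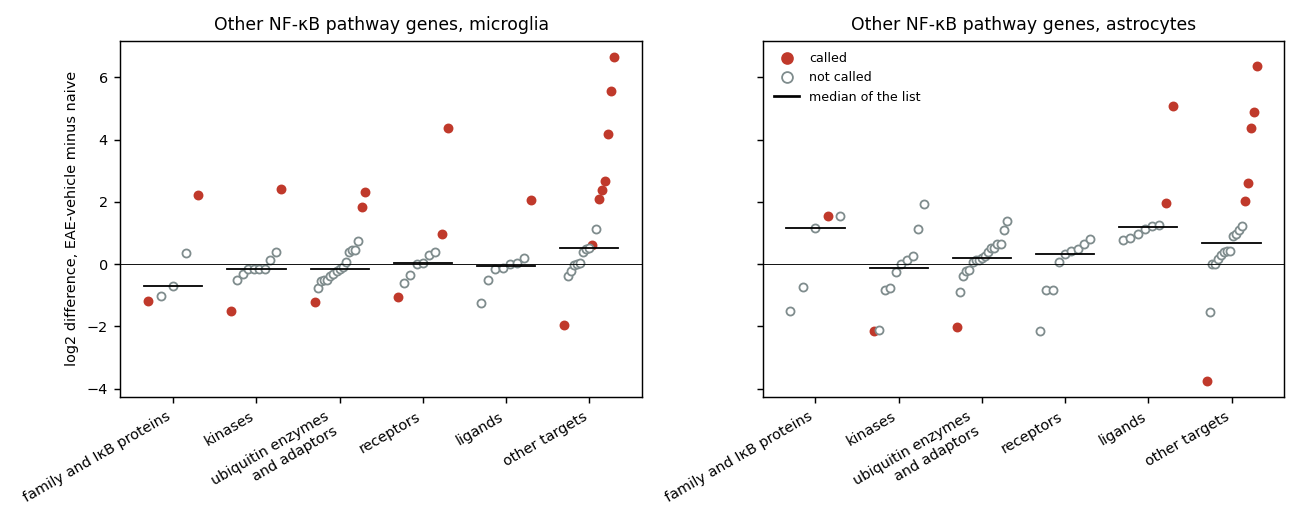
Log2 difference between EAE-vehicle and naive libraries (y axis) for the other genes of the pathway, in 6 lists, in microglia (left) and astrocytes (right). Each point is 1 gene, red where called, and lines give the median of the list; in both cell types the highest points are target genes, up to 6.65 in microglia and 6.35 in astrocytes.

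In astrocytes, Tnfaip3 and Traf1 were called higher in EAE-vehicle than in naive libraries, and none of the 10 genes was called lower. Over 30718 genes tested, 6.71% were called, 2.69% higher and 4.01% lower. At an adjusted p under 0.05 in limma, 0.579% of all genes passed and 0 of the 10, with 0.107 for Tnfaip3 as the smallest, and 2 of the 10 had an unadjusted p under 0.05. The median difference of the 10 genes was 0.38, against 0.03 over all genes and -0.09 over genes whose log2 values averaged 1 or more.

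Tnfaip3 was low in naive astrocytes, at 0.17, no signal, no signal and 0.95. In the EAE-vehicle libraries it stood at 4.52, 3.80, 3.60, 3.14, 2.36 and 3.60, and every one of them lay above every naive library. The difference was 3.22 log2 units (SE 0.80, adjusted p = 0.107 in limma), and it was 2.48 with 1 added to the back-transformed values. The exact permutation p, two-sided, was 0.00476, the smallest possible for 4 against 6. With each library left out in turn the difference stayed between 3.02 and 3.45, and the call was kept.

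Traf1 stood at 1.47 and at no signal in the other 3 naive libraries. Among the EAE-vehicle libraries it had no signal in the first and stood at 0.48, 3.70, 0.85, 5.59 and 4.70 in the others. The groups overlap, since EAE-vehicle libraries 2 and 4 lay below naive library 1. In EAE-vehicle library 1, values without signal reached 2.74, so Traf1 cannot be placed there. The difference was 2.18 (SE 0.99, p = 0.0433 and adjusted p = 0.680 in limma, exact permutation p = 0.119). Leaving out single libraries ended the call 11 times of 15, at differences down to 1.57 without EAE-vehicle library 5, and the call was also lost when only these groups were fitted. With quality weights the difference was 3.29.

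T cell markers moved with both genes. The mean over 8 of them was 0.61, 0.59, 0 and 0 in the naive astrocyte libraries and 3.14, 5.12, 5.15, 0.73, 5.65 and 4.11 in the EAE-vehicle libraries, with 5 of 8 called higher. Of the 8, Cd3e, Cd3g, Cd4 and Cd8a had signal in 1 or 2 of the 4 naive astrocyte libraries, at most 2.55, and Cd3d, Lck, Cd2 and Cd5 in none. In EAE-vehicle, Cd3e ran from 2.81 to 6.34. Monocyte and neutrophil markers had 5 of 8 called higher, with a mean of 0 to 0.85 in naive and of 1.51 to 4.61 in EAE-vehicle libraries. Microglia markers had 3 of 10 called higher, at a mean of 0.94 to 2.85 and of 2.44 to 4.30. Oligodendrocyte markers had 4 of 7 called higher, and 5 of 8 astrocyte markers were called lower. In EAE-vehicle library 4, where the T cell mean was 0.73, Tnfaip3 stood at 3.14 and Traf1 at 0.85. In library 5, with the highest T cell mean, Tnfaip3 was lowest of its group at 2.36 and Traf1 highest at 5.59. The part of T cells, monocytes and the other types in these results was not tested.

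**Figure D3:**
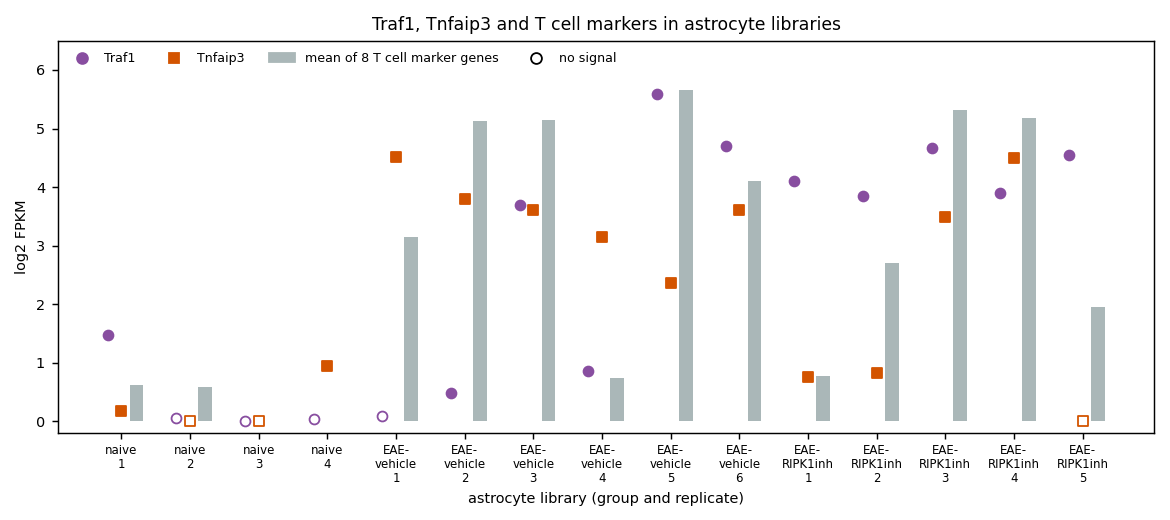
Levels of Traf1 (circles) and Tnfaip3 (squares) and the mean over 8 T cell marker genes (bars), all in log2 FPKM on the y axis, in each of the 15 astrocyte libraries; open symbols mark no signal. The 4 naive libraries are low in each of these, Tnfaip3 is at 3.14 in EAE-vehicle library 4 where the T cell bar is at 0.73, and Traf1 is between 3.84 and 4.67 in the 5 EAE-RIPK1inh libraries over T cell bars from 0.77 to 5.32.

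The remaining 8 genes were not called in astrocytes. Nfkb1 differed by 0.05 (SE 0.72), Nfkb2 by -0.27 (SE 0.81), Rela by 0.30 (SE 1.03) and Relb by 0.32 (SE 0.83). The SE of each was larger than its difference, so a change of this size was not detectable. Nfkbia differed by 1.40 (SE 1.15), and this rests on naive astrocyte library 2, without which the difference was -0.47. Nfkbie differed by -0.14, Tnip1 by 0.77 and Birc3 by 0.45, all with overlapping groups. Relb stood highest in EAE-vehicle libraries 5 and 6, at 4.18 and 2.62, and Birc3 in libraries 1 and 6, at 3.53 and 3.62.

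Of the 67 other pathway genes, 8 were called higher and 3 lower in EAE-vehicle astrocytes, and 3 and 0 passed adjustment in limma. The target genes had 5 of 18 called higher and ligands 2 of 8. Cxcl10 stood at 6.55 ± 1.72 (SD, n = 6) in EAE-vehicle and had signal in 1 of 4 naive libraries, at most 0.38 (adjusted p = 3.95e-04 in limma). Ltb, the gene of lymphotoxin β, which signals to the noncanonical arm and is made by lymphocytes, stood at 5.09 ± 1.13 and had no signal in naive astrocytes (adjusted p = 0.0194 in limma). Ccl5 stood at 5.55 ± 1.81 in EAE-vehicle astrocytes (adjusted p = 0.0880 in limma). Irf1, an interferon-induced transcription factor named after its values were seen, was the third that passed adjustment, with a difference of 4.38 (adjusted p = 0.0368 in limma). The 3 called lower were Vcam1, with a difference of -3.74 (adjusted p = 0.282), Chuk, which encodes the kinase IKKα, at -2.15 (adjusted p = 0.436), and Tnip2, a relative of Tnip1, at -2.03 (adjusted p = 0.608), all from limma. Vcam1 had signal in 5 of 6 EAE-vehicle and 4 of 4 naive libraries, Chuk in 4 and 4, and Tnip2 in 2 and 3.

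The EAE differences of the cell types were set against each other by the interaction term of the fit over all 30 libraries, the EAE difference in microglia minus that in astrocytes. Of the 10 genes 1 was called, Tnfaip3, against 8.68% of all genes, so the count is near the background. None of the 10 passed adjustment in limma, as 0.982% of all genes did, and 1 had an unadjusted p under 0.05. The Tnfaip3 term was -3.11 (SE 0.87, adjusted p = 0.0821 in limma) and stayed between -3.33 and -2.90 with each library left out. With 1 added to the back-transformed values it was -2.36, and 2 of the 4 naive astrocyte libraries behind it had no signal. The median interaction term of the 10 genes was -0.46, against -0.05 over all genes and 0.17 over genes whose log2 values averaged 1 or more. Starting from 4.01 in naive microglia and 0.28 in naive astrocytes, where libraries without signal enter at their deposited value, the mean level of Tnfaip3 stood at 4.13 and 3.50 in the EAE-vehicle groups. The Nfkb1 term was -1.08 (SE 0.76, adjusted p = 0.727 in limma), so its fall in microglia is not shown to differ from the astrocyte value. The term was called without naive astrocyte library 2, at -1.60, and with quality weights, at -1.70. Traf1 had a term of -1.74 (adjusted p = 0.692 in limma), called without EAE-vehicle astrocyte library 1 or 2, at -2.23 and -2.16, and with quality weights, at -2.66. Without EAE-vehicle astrocyte library 5 it was -1.13 and not called. Of the other pathway genes, 7 had a called positive term and 8 a called negative term. Among genes whose log2 values averaged 1 or more, the largest were those of Vcam1 at 7.92 (adjusted p = 0.00183), Tnfaip2 at 4.18 (adjusted p = 0.0453) and Cd40 at 3.97 (adjusted p = 0.00387) on one side, and of Ltb at -6.33 (adjusted p = 0.00520), Bcl2l1 at -2.25 (adjusted p = 0.495) and Nfkbiz at -2.25 (adjusted p = 0.205) on the other, all in limma. Below that average, Csf2 had a called term of -2.59 (SE 1.19, which did not pass adjustment) and Il6 one of -1.97 (adjusted p = 0.0143 in limma), and these 2 were named after their values were seen.

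**Figure D4:**
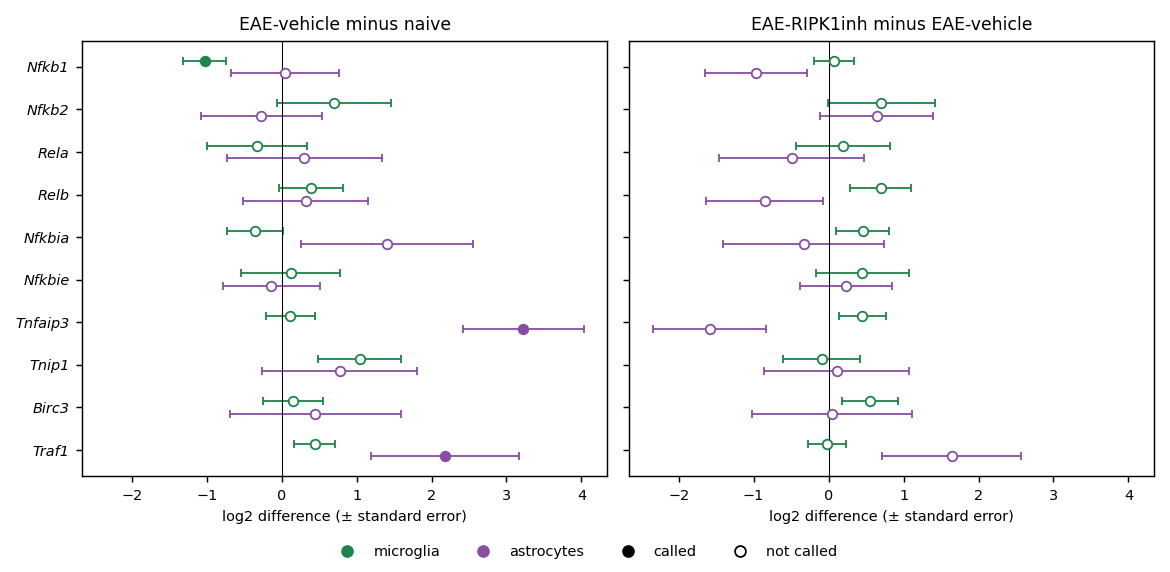
Log2 difference ± standard error (x axis) of each of the 10 genes between EAE-vehicle and naive libraries (left) and between EAE-RIPK1inh and EAE-vehicle libraries (right), in microglia (green) and astrocytes (purple). Filled points were called: Nfkb1 in microglia at -1.03, Tnfaip3 in astrocytes at 3.22 and Traf1 in astrocytes at 2.18, and no point on the right is filled.

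The RIPK1 inhibitor called 0 of the 10 genes in either cell type. In microglia, 1.76% of all genes were called between EAE-RIPK1inh and EAE-vehicle and 0.00345% passed an adjusted p of 0.05 in limma. In astrocytes, 3.02% were called and 0% passed. The smallest adjusted p of the 10 genes was 0.930 in microglia and 0.840 in astrocytes, and 0 of the 10 had an unadjusted p under 0.05 in either. A p that misses the threshold does not show that the groups are alike, and the SE of a member's difference ran up to 0.71 in microglia and 1.08 in astrocytes (log2).

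In microglia, 8 of the 10 differences were positive, with a median of 0.45. It was -0.02 over all genes and 0.02 over genes whose log2 values averaged 1 or more. Relb differed by 0.69 (SE 0.40, exact permutation p = 0.139), Birc3 by 0.55 (SE 0.37), Nfkbia by 0.46 (SE 0.36) and Tnfaip3 by 0.45 (SE 0.31). Relb stood at 2.11, 2.84, 3.14, 1.86, 2.22 and 2.71 in EAE-vehicle and at 2.29, 2.06, 3.77, 4.04 and 3.71 in EAE-RIPK1inh microglia. Libraries 3 to 5 of the inhibitor group lay above every vehicle library and libraries 1 and 2 did not. Without inhibitor library 1 or 2 Relb was called, at 0.92 and 0.97, and without library 2 Nfkbia was called too, at 0.72. With each library weighted by its quality in limma, Relb (1.09), Birc3 (0.96), Nfkbia (0.84) and Tnfaip3 (0.75) were all called higher, so that the count of 0 depends on equal weights. The share of all genes called with these weights was not computed, so these calls have no background to be set against. Nfkb1 stood at 5.41, 4.85, 6.38, 4.78 and 5.36 with the inhibitor. Library 3 lay within the naive range and the other 4 within or below the vehicle range, and the difference from vehicle was 0.07 (SE 0.27). Nfkb2 differed by 0.70 (SE 0.71), Nfkbie by 0.45 (SE 0.62), Rela by 0.19, Tnip1 by -0.09 and Traf1 by -0.02. The mean over 10 microglia markers ran from 8.53 to 9.04 in vehicle and from 8.54 to 10.03 in inhibitor libraries, with 1 of 10 called higher. Over 9 monocyte and neutrophil markers it ran from 2.41 to 6.48 and from 2.00 to 7.68, with 0 of 9 called. The T cell marker mean was at most 0.72 and 1.93. The part of these cells in the differences was not tested.

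In astrocytes, 5 differences were positive and 5 negative, with a median of -0.15. It was -0.03 over all genes and 0.02 over genes whose log2 values averaged 1 or more. Tnfaip3 stood at 0.76, 0.83, 3.49, 4.50 and no signal with the inhibitor. Inhibitor libraries 3 and 4 lay within the vehicle range of 2.36 to 4.52 and the other 3 below it. The difference was -1.59 (SE 0.75, p = 0.0526 in limma, exact permutation p = 0.102), and it was called without EAE-vehicle library 5 or inhibitor library 3 or 4, at -1.81, -1.98 and -2.23. Without inhibitor library 5, where the gene had no signal, the difference was -1.11, and with quality weights it was -0.50, neither of them called. The T cell marker mean in the same 5 inhibitor libraries was 0.77, 2.70, 5.32, 5.18 and 1.95, high in the libraries where Tnfaip3 was high. Its part in the result was not tested.

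Traf1 stood at 4.10, 3.84, 4.67, 3.89 and 4.55 in the inhibitor-treated astrocytes, while the vehicle libraries ran from no signal to 5.59. All 5 inhibitor libraries lay above all 4 naive libraries, though these groups were not tested against each other. The difference from vehicle was 1.64 (SE 0.93, p = 0.0967 in limma, exact permutation p = 0.160), called without EAE-vehicle library 5 or 6 at 2.24 and 2.07. It was 1.14 without EAE-vehicle library 1 and 0.82 with quality weights, neither of them called. Nfkb1 had signal in 1 of 5 inhibitor libraries and in 5 of 6 vehicle libraries, and Relb in 1 and 4, with differences of -0.97 (SE 0.68) and -0.85 (SE 0.78). In EAE-vehicle library 2 that signal was 0.32 for Nfkb1 and 0.16 for Relb, and values without signal reached 0.01 there. They reached 0.28 to 1.18 in the inhibitor libraries, so the counts with signal also depend on the library. Nfkb2 differed by 0.64, Rela by -0.49, Nfkbia by -0.33, Nfkbie by 0.23, Tnip1 by 0.11 and Birc3 by 0.04, each with overlapping groups. Birc3 had no signal in 4 inhibitor libraries and stood at 5.83 in library 2.

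Of the other pathway genes, 0 of 66 were called with the inhibitor in microglia. In astrocytes 1 was called higher, Traf5 at 0.95, and 2 lower, Birc2, the gene of cIAP1, at -2.10 and Ikbkb, the gene of the kinase IKKβ, at -2.06. The adjusted p was 0.840 for each in limma. Traf5 was named after its values were seen.

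Over the 15 microglia libraries, the pattern of each gene was set beside those of 6048 protein-coding genes with signal in all 15. This is a description over libraries that share groups and the normalization. Nfkb1 was most like Gimap6 (Pearson's r = 0.918), Ctnnd1 (0.886) and Arap3 (0.880), and Relb most like Clcn7 (0.948), Mov10 (0.896) and Mfsd12 (0.892). Nfkbia was most like Rspry1 (0.909), Spns1 (0.859) and Prkcd (0.852). For Rela the highest r was 0.855 with Tmem214, for Nfkbie 0.844 with Idua, for Tnip1 0.843 with 3830406C13Rik, for Tnfaip3 0.794 with Tgif1 and for Birc3 0.768 with Siae. None of these genes is another of the 10. Nfkb2 and Traf1 lacked signal in some microglia libraries and were not compared, and none of the 10 had signal in all 15 astrocyte libraries.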

How the data were processed

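From the reads, the authors computed in OmicSoft Array Studio, and deposited, log2 FPKM values that are quantile-normalized over all 30 libraries. The aligner, annotation release and offset before the logarithm are not given in the sources used here. Per the file headers, the annotation columns hold gene positions and exon lengths. The positions of 10 of 10 genes are those of GRCm38. Genes without signal in a library were recognised by values that rise with table position.

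Groups came from the labels. The log2 values were fitted in R 4.3.3 with limma 3.58.1 (lmFit, then eBayes with a trend), with 1 fit per cell type of its 3 groups or 1 fit of all 30 libraries, with Benjamini-Hochberg adjustment over all genes. The fits were unpaired and took all libraries as independent, and the code was tested on simulated data. Single genes were also compared by exact two-sided permutation over 210, 462 or 70 splits. The study names a paired test, but the labels do not say whether replicate numbers pair the libraries. The deviations of same-numbered libraries correlated at -0.16 to 0.14, and such weak values cannot settle whether they are paired.

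Named are the 10 genes, of 67 other pathway genes the 3 largest called rises and falls per comparison at a mean log2 value of at least 1, and the 3 genes most like each of the 10. Members, gene lists and 10 marker lists were chosen with earlier results of these data known. Fits also varied genes, scaling, weights, trend, groups and libraries.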

Additional observations from a re-analysis of the deposited data

Results flagged for a closer look

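Within the groups of 4 to 6 libraries, 10 single libraries of the 59 tested gene and group pairs lay far from the others of their group, and chance alone marks about 1 group in 20 where values are measured throughout. In naive astrocyte library 2, one of the libraries with the fewest detected genes, Nfkbia had no signal (listed at 0) while the others were at 7.15 to 7.84, Nfkb1 was at 2.95 over 0.80 to 0.99, and Birc3 was at 2.39 over 0.45, 0.53 and no signal. Values without signal reached 1.69 in that library, and 0, 0.48 and 0.81 in naive astrocyte libraries 1, 3 and 4. Any gene with signal in library 2 thus lies above 1.69, which the flag did not take into account. In the next 4 cases a single library of the group had signal. Traf1 stood at 1.47 in naive astrocyte library 1, Nfkb1 at 2.13 and Relb at 2.34 in EAE-RIPK1inh astrocyte library 4, and Birc3 at 5.83 in EAE-RIPK1inh astrocyte library 2. The values listed for libraries without signal follow the gene's place in the table. The gap in these 4 cases therefore says only that the other libraries of the group had no signal.

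In microglia, Nfkbie was at 0.63 in naive library 1 and at 3.88 or more in the others, Tnip1 was at 1.41 in EAE-vehicle library 3 and at 3.04 or more in the others, and Nfkbia was at 6.56 in EAE-RIPK1inh library 2 and at 7.81 or more in the others.

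For Tnfaip3 the EAE difference in microglia minus that in astrocytes was -3.11 and was called (adjusted p = 0.0821 in limma), as were 8.68% of all genes, so 1 of the 10 genes is near the background, and it did not pass adjustment.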

How the results depend on the processing

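The 10 alternatives and the fits without single libraries gave 1776 values for single genes, of which 1651 kept direction and call, 13 lost a call, 30 gained one and 82 turned direction. No turned value had an unadjusted p below 0.167 in limma. With quality weights the count of genes called was 3 for EAE in microglia, 4 for the inhibitor in microglia and 3 for the interaction term. Without the variance trend it was 1 for the inhibitor in astrocytes, and with only the groups compared it was 1 for EAE in astrocytes. Without the 3 libraries with the fewest detected genes, an alternative chosen after seeing the data, it was 2 for EAE in microglia and 2 for the interaction term. With the replicate number as a block (replicate block) it was 1 for EAE in astrocytes, where Traf1 was lost, and 1 for the inhibitor in astrocytes, where Traf1 was gained. The labels do not say whether the numbers pair the libraries, and at most 2 libraries of a pair of groups correlated best with their own number. With single libraries left out the counts ran from 1 to 2 for EAE in microglia, 1 to 2 for EAE in astrocytes, 0 to 2 for the inhibitor in either cell type, 4 to 5 between the naive cell types and 1 to 2 for the interaction. The causes were not tested. The share of all genes called was computed for the main fits only, so the counts in this paragraph have no background of their own.

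Turned directions, all among values that were not called, were as follows. Birc3 with the inhibitor in astrocytes was -0.15 with genes without signal set to 0, -0.027 with libraries centred on their median and -0.38 with quality weights. Centring gave 0.035 for Nfkbie under EAE in astrocytes and -0.12 for Relb in the interaction. Quality weights gave -0.15 for Tnfaip3 and -0.24 for Birc3 under EAE in microglia, 0.37 for Nfkbie under EAE in astrocytes, -0.014 for Nfkb1 with the inhibitor in microglia and -0.50 for Relb in the interaction. The block gave -0.15 for Nfkbie under EAE in microglia, -0.17 for Nfkb1, -0.015 for Rela and -0.24 for Relb under EAE in astrocytes, and 0.013 for Tnip1 and 0.12 for Traf1 with the inhibitor in microglia. Without the 3 libraries the values were -0.0074 for Rela and -0.47 for Nfkbia under EAE in astrocytes and -0.41 for Relb in the interaction.

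With single libraries left out, these log2 differences turned. For EAE in microglia the ranges were -0.62 to 0.045 for Rela, -0.72 to 0.41 for Nfkbie, -0.087 to 0.30 for Tnfaip3 and -0.13 to 0.46 for Birc3. For EAE in astrocytes they were -0.24 to 0.57 for Nfkb1, -0.76 to 0.23 for Nfkb2, -0.61 to 0.91 for Rela, -0.23 to 0.83 for Relb, -0.47 to 2.14 for Nfkbia and -0.39 to 0.27 for Nfkbie. For the inhibitor in microglia they were -0.19 to 0.21 for Nfkb1, -0.19 to 0.88 for Rela, -0.46 to 0.058 for Tnip1 and -0.24 to 0.12 for Traf1, and in astrocytes -0.27 to 0.45 for Nfkbie, -0.43 to 0.81 for Tnip1 and -1.06 to 0.49 for Birc3. Between the naive cell types they were -0.34 to 0.98 for Nfkb2 and -0.40 to 0.71 for Tnip1. For the interaction they were -1.23 to 0.28 for Rela, -0.44 to 0.61 for Relb, -2.50 to 0.12 for Nfkbia, -0.58 to 0.55 for Nfkbie, -0.27 to 0.91 for Tnip1 and -0.78 to 0.15 for Birc3.

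The depth of the libraries is unknown, and genes near no signal, most of the 10 in astrocytes, cannot be told from genes not captured. The astrocyte libraries hold signal from other cell types, and small differences there were not detectable with the spread seen.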
